A study of Mus musculus with 12 samples.

Results

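A set of 10 genes of the inflammasome and the interleukin-1 (IL-1) family were taken from the merged table of RNA-seq read counts by their gene symbols: *Nlrp3*, *Nek7*, *Pycard*, *Casp1*, *Casp4*, *Gsdmd*, *Il1a*, *Il1b*, *Il18* and *Il1rn*. All 10 were found, 1 row each, among 55471 genes in the table, and all 10 were among the 18228 genes with enough reads to be tested. The cells were bone marrow-derived dendritic cells (DCs) of adult female C57BL/6 mice, grown with GM-CSF and given a short hairpin RNA (shRNA) by retroviral transduction. The hairpin was directed against firefly luciferase, which mouse cells lack (shControl), or against *Ppargc1b*, which encodes the transcriptional coactivator PGC-1β (sh*Ppargc1b*). DCs of each kind were kept unstimulated or exposed for 6 h to interferon-β (IFN-β), giving 4 groups of 3 libraries and 12 libraries in all. Transduced cells were selected on a surface reporter, and the hairpin used in these libraries is not named in the labels.

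Inflammasomes are cytosolic complexes that turn a danger or microbial signal into protease activity. A sensor such as NLRP3, joined by its partner NEK7, recruits the adaptor ASC, the product of *Pycard*, which in turn gathers pro-caspase-1. Caspase-1 matures the precursors of IL-1β and IL-18 and cleaves gasdermin D, whose fragment forms pores in the plasma membrane, while caspase-11, the product of mouse *Casp4*, is switched on by cytosolic lipopolysaccharide and also cleaves gasdermin D. IL-1α acts on the same receptor as IL-1β without needing caspase-1, and *Il1rn* encodes the receptor antagonist that blocks both. Transcripts say nothing about complex assembly, cleavage or secretion, which were not measured here.

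The members lay on 6 chromosomes of the GRCm38 build (GENCODE M21). *Casp1* (ENSMUSG00000025888, chr9:5298517-5307265) and *Casp4* (ENSMUSG00000033538, chr9:5308828-5336783) were neighbours on chromosome 9, with 1562 bp between them. *Il18* (ENSMUSG00000039217, chr9:50554827-50581840) lay farther along the same chromosome. *Il1a* (ENSMUSG00000027399, chr2:129299610-129309972) and *Il1b* (ENSMUSG00000027398, chr2:129364570-129371139) were 54597 bp apart, and *Il1rn* (ENSMUSG00000026981, chr2:24336853-24351494) lay elsewhere on chromosome 2. The other members were *Nlrp3* (ENSMUSG00000032691, chr11:59541568-59566956), *Nek7* (ENSMUSG00000026393, chr1:138482875-138620141), *Pycard* (ENSMUSG00000030793, chr7:127989708-127993867) and *Gsdmd* (ENSMUSG00000022575, chr15:75862327-75867408). Exons of *Pycard*, *Il1a*, *Il1b* and *Nek7* overlapped an annotated gene on the opposite strand. Those partners had between 0.0309% and 1.09% of the member's counts, and the sources used here do not state whether the counting used strand.

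The promoters of *Casp4*, *Casp1* and *Nlrp3* are shown because these genes span the range of the IFN-β response described below, with *Casp4* at the top and *Nlrp3* near the bottom, and because *Casp1* and *Casp4* are neighbours. Each is the 250 bases before a RefSeq transcription start on the plus strand of GRCm38.p6: chr9:5308599-5308848 for *Casp4*, chr9:5298267-5298516 for *Casp1* and chr11:59541319-59541568 for *Nlrp3*. Capitals mark matches to the kappaB motif, the site of NF-κB proteins.
Casp4: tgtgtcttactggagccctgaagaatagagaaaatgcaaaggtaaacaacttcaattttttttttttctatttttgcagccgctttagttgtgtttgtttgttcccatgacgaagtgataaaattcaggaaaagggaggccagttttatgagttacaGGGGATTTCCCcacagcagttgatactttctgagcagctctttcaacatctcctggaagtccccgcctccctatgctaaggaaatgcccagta
Casp1: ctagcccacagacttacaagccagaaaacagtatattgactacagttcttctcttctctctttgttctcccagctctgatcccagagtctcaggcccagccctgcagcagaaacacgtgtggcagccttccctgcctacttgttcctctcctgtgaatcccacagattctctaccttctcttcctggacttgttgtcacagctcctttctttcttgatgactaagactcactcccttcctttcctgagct
Nlrp3: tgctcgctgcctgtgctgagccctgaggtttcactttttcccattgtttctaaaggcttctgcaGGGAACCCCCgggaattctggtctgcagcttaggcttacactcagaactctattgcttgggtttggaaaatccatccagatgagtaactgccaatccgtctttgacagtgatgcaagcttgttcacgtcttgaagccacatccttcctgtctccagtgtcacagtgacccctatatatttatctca
The RefSeq windows used here numbered 13 for 9 of the 10 members and included none for *Gsdmd*. On both strands, 0 of the 13 windows held the core of the interferon-stimulated response element (GAAA, any 2 bases, then GAAA), against 2.98% of 32851 mouse windows of the same length. The interferon-γ-activated sequence (TTCNNNGAA) was in 0 of the 13 windows and in 7.02% of all windows. The kappaB motif was in 3 windows of 2 members and in 3.9% of all windows, with matches starting at -93 and -92 in the *Casp4* window above, which overlap each other, and at -186 in that of *Nlrp3*. Another *Casp4* window, chr9:5308610-5308859, overlaps the one above and holds the same matches, so it adds no separate site. Another *Nlrp3* window, chr11:59542436-59542685, held no match. A letter match describes the window only, and the lack of one says nothing about factor binding.

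The libraries held 49919648 to 77726101 counts. Values below are TMM-scaled CPM, a gene's counts relative to the library's total after edgeR's trimmed-mean scaling, which suit comparison of 1 gene between libraries. *Ppargc1b* itself, the target of the hairpin, was at 33.4, 33.3 and 36.7 CPM in unstimulated shControl DCs and at 18.6, 19.3 and 20.3 CPM in unstimulated sh*Ppargc1b* DCs. With IFN-β it was at 31.4, 23.6 and 28.4 CPM in shControl and at 19.6, 15.5 and 20.9 CPM in sh*Ppargc1b*. It was lower in all knockdown libraries, 0.563-fold without IFN-β (adjusted p = 3.2e-05) and 0.672-fold with it (adjusted p = 9.5e-04). With IFN-β, *Ppargc1b* was called lower in shControl DCs, without overlap (0.805-fold, adjusted p = 0.0210), and not called in sh*Ppargc1b* DCs (0.960-fold, 0.705). A test of the difference of these responses did not pass (adjusted p = 0.620). Adjusted p-values are from edgeR's quasi-likelihood test with Benjamini-Hochberg adjustment over all genes tested, with a call at an adjusted p under 0.05. The labels do not say that libraries came from separate cultures or mice, so the p-values measure the spread between these libraries, which may be technical.

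All 11 dendritic cell markers were detected (*Flt3* at only 1.92 to 3.34 CPM), and all 9 macrophage markers were detected too, among them *Csf1r* and *Cd68*. Of the 11, 4 were called higher in the knockdown without IFN-β and 5 with it, and none lower. These were *Itgax*, *Flt3*, *Zbtb46* and *Ccr7* in both states and *Dpp4* with IFN-β. *Ccr7* differed most, with means of 50.9 and 128 CPM in shControl and sh*Ppargc1b* DCs without IFN-β and 81.1 and 208 CPM with it. Summed macrophage markers ranged from 2784 to 2949 CPM in unstimulated shControl and from 2529 to 2607 CPM in unstimulated sh*Ppargc1b* libraries. With IFN-β they ranged from 3557 to 3810 CPM in shControl and from 3092 to 3276 CPM in sh*Ppargc1b* libraries. Of the 9, 2 were called lower in the knockdown without IFN-β and 5 with it. *Mrc1*, a mannose receptor, differed most, with means of 307 and 107 CPM in shControl and sh*Ppargc1b* DCs without IFN-β and 257 and 96.1 CPM with it, whereas *Csf1r*, *Cd68*, *C1qa* and *Adgre1* were not called in either state. Of the 9, 6 were called higher with IFN-β in each kind of DC. Summed neutrophil markers, of 11, ranged from 52.5 to 107 CPM and from 61.8 to 121 CPM in the shControl groups without and with IFN-β, and from 101 to 173 CPM and 107 to 189 CPM in the sh*Ppargc1b* groups. Of these, *S100a8* (group means of 33.2 to 61.3 CPM) and *Cxcr2* (0.955 to 2.63 CPM) were called higher in the knockdown in both states, and the other 9 were not called. Summed markers of mast cells and basophils ranged from 9.20 to 19.1 CPM in shControl and from 18.3 to 26.8 CPM in sh*Ppargc1b* libraries. Summed eosinophil markers ranged from 27.3 to 70.2 CPM, and lymphocyte and erythroid markers summed to at most 1.07 and 0.311 CPM. In such bulk samples fewer cells of a type and less RNA per cell cannot be told apart, and the part of cell makeup in the results below was not tested.

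The members differed widely in level. On the per-length scale (RPKM, which is CPM divided by the exon length in kilobases), *Il1rn* was the highest in every group, at 153 ± 12.3 RPKM (mean ± SD, n = 3) in unstimulated shControl and 505 ± 68.6 RPKM in IFN-β-treated sh*Ppargc1b* DCs. *Il18* was the lowest in every group, between 2.72 and 12.8 RPKM. In unstimulated shControl DCs the order below *Il1rn* was *Il1a* (87.9 RPKM), *Il1b* (47.5), *Casp1* (37.5), *Nlrp3* (33.1), *Pycard* (24.0), *Nek7* (23.4), *Gsdmd* (20.1) and *Casp4* (6.59). Only the neighbours *Pycard* and *Nek7* overlapped in that order. The exon length used for *Pycard* was 3800 bp of its 4160 bp span, joined over 2 annotated transcripts. For *Casp1*, with 1 transcript, it was 1497 bp. The RPKM of *Pycard*, and so its place in the order of any group, depends on that length, and no other was tried. In unstimulated sh*Ppargc1b* DCs the overlapping neighbours were *Nlrp3* with *Casp1* and *Gsdmd* with *Nek7*. With IFN-β in shControl DCs, *Casp1* reached 132 ± 6.92 RPKM and overlapped *Il1a* (134 ± 12.2), and *Pycard*, *Il1b*, *Gsdmd*, *Nlrp3* and *Casp4* lay between 39.3 and 46.8 RPKM, each overlapping the next. In sh*Ppargc1b* DCs with IFN-β, *Casp1* was at 103 ± 1.84 RPKM, below *Il1a* without overlap, and *Il1b*, *Nlrp3*, *Gsdmd* and *Pycard* overlapped in turn between 37.5 and 44.5 RPKM.

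**Figure D1:**
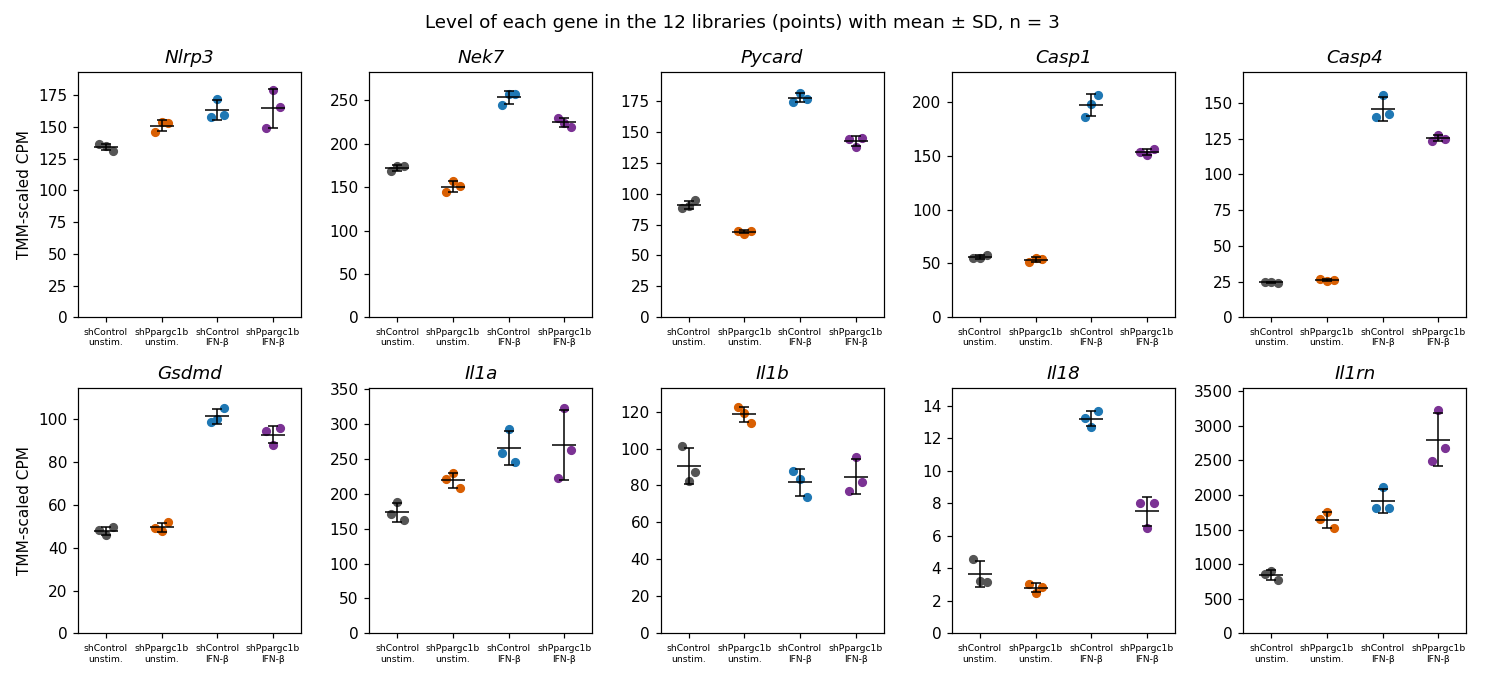
TMM-scaled CPM (y axis, linear, from 0) of the 10 genes in each library (points), by group (x axis), with the mean and SD of 3 libraries (lines). *Casp1*, *Casp4* and *Il18* sat far higher with IFN-β in both kinds of DC, while *Il1b* was highest in unstimulated sh*Ppargc1b* DCs at 114 to 122 CPM.

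The first question was how IFN-β changes the machinery in DCs with the control hairpin. Of the 10 members 9 rose and *Il1b* was not called, and treated and unstimulated libraries were fully apart for the same 9. Of all genes tested 48.2% were called in either direction and 23.7% called higher (24.6% lower), and 56.7% did not overlap. The median log2 fold change was 1.02 over the members and -0.03 over all genes tested.

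The 2 caspases rose most among the machinery genes. *Casp4* was at 25.0, 24.3 and 24.0 CPM in unstimulated shControl DCs and at 140, 156 and 142 CPM after IFN-β, a 5.97-fold rise (log2 fold change 2.58 ± 0.05, SE, adjusted p = 2.4e-15). *Casp1* was at 55.3, 55.0 and 58.0 CPM unstimulated and at 186, 198 and 207 CPM with IFN-β, a 3.51-fold rise (1.81 ± 0.05, adjusted p = 3.9e-14). In both, every treated library was far above every unstimulated one. The gasdermin gene *Gsdmd* was at 48.2, 45.8 and 49.5 CPM and rose to 98.7, 99.7 and 105 CPM (2.12-fold, adjusted p = 3.1e-11). *Pycard*, the adaptor, was at 88.6, 89.9 and 94.7 CPM and rose to 175, 182 and 177 CPM (1.95-fold, adjusted p = 9.5e-12). These groups did not overlap either. The sensor and its partner moved less. *Nek7* went from 168, 174 and 175 CPM to 245, 258 and 258 CPM (1.47-fold, adjusted p = 1.5e-08). *Nlrp3* went from 136, 135 and 131 CPM to 158, 172 and 160 CPM (1.22-fold, log2 fold change 0.28 ± 0.06, adjusted p = 6.4e-04). The *Nlrp3* call was lost when libraries were scaled by their totals alone (log2 fold change 0.04, adjusted p = 0.508), a scaling that moved the median of all genes to -0.27.

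Among the cytokines, *Il18*, whose product induces interferon-γ in lymphocytes, rose most. It was at 4.57, 3.23 and 3.16 CPM unstimulated and at 13.2, 12.7 and 13.7 CPM with IFN-β (3.62-fold, adjusted p = 1.1e-08). These are the smallest counts among the members, 166 to 971 a library over all groups. *Il1rn* rose 2.26-fold, from 865, 903 and 771 CPM to 1814, 2119 and 1806 CPM (adjusted p = 3.1e-08). *Il1a* rose 1.53-fold, from 170, 188 and 162 CPM to 259, 292 and 246 CPM (adjusted p = 1.4e-04). In none of these 3 genes did the groups overlap. *Il1b* was at 102, 82.6 and 87.4 CPM unstimulated and at 87.8, 83.6 and 73.7 CPM with IFN-β, with overlapping libraries (log2 fold change -0.15 ± 0.08, adjusted p = 0.165). It was called lower with library totals alone (-0.39, adjusted p = 8.8e-04) and when all genes with a count were tested (adjusted p = 0.0183).

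The same comparison in sh*Ppargc1b* DCs used none of those libraries. Here 8 members rose and 1 fell, *Nlrp3* was not called, and libraries of 8 did not overlap between the groups. Of all genes tested 42.6% were called, 21.4% higher and 21.2% lower, and 50.1% did not overlap. The median log2 fold change was 0.84 over the members and -0.02 over all genes tested. *Casp4* went from 27.1, 25.1 and 26.0 CPM to 124, 128 and 125 CPM, a 4.81-fold rise (log2 fold change 2.27 ± 0.05, adjusted p = 9.5e-15). *Casp1* went from 51.0, 54.7 and 54.5 CPM to 154, 151 and 156 CPM, a 2.88-fold rise (1.52 ± 0.05, adjusted p = 3.5e-13). Neither gene overlapped between the groups. *Gsdmd* went from 48.9, 47.7 and 51.7 CPM to 94.1, 88.0 and 95.8 CPM (1.87-fold, adjusted p = 3.7e-10). *Pycard* went from 69.6, 67.8 and 70.1 CPM to 144, 138 and 146 CPM (2.06-fold, adjusted p = 5.0e-12), and *Nek7* from 144, 157 and 151 CPM to 230, 224 and 220 CPM (1.49-fold, adjusted p = 1.4e-08). All treated libraries were again the higher ones. *Nlrp3* was at 146, 154 and 153 CPM unstimulated and at 149, 179 and 166 CPM with IFN-β, so that the groups overlapped (log2 fold change 0.13 ± 0.06, adjusted p = 0.0886). It was called higher without IFN-β-treated library 1 (adjusted p = 0.00465) and in a fit with a block for runs of 4 consecutive library codes, each holding 1 library of every group (0.0337), and with library totals alone its value was -0.08.

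*Il1b* fell with IFN-β in sh*Ppargc1b* DCs, from 122, 119 and 114 CPM to 77.2, 95.6 and 81.7 CPM (0.716-fold, log2 fold change -0.48 ± 0.08, adjusted p = 2.6e-04). All 3 treated libraries were below the unstimulated ones. *Il1a*, its neighbour on chromosome 2, was at 220, 229 and 208 CPM unstimulated and at 223, 323 and 262 CPM with IFN-β (1.23-fold, adjusted p = 0.0294). Its groups overlapped, and the call was lost without unstimulated library 1 (adjusted p = 0.0596) or 3 (0.0983), without IFN-β-treated library 2 (0.166), and with library totals alone (0.459). *Il18* rose from 3.04, 2.50 and 2.87 CPM to 8.03, 6.50 and 8.01 CPM (2.68-fold, adjusted p = 5.0e-07). *Il1rn* rose from 1646, 1748 and 1526 CPM to 2485, 3219 and 2684 CPM (1.71-fold, adjusted p = 4.9e-06). For both genes the treated libraries were all above the unstimulated ones.

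**Figure D2:**
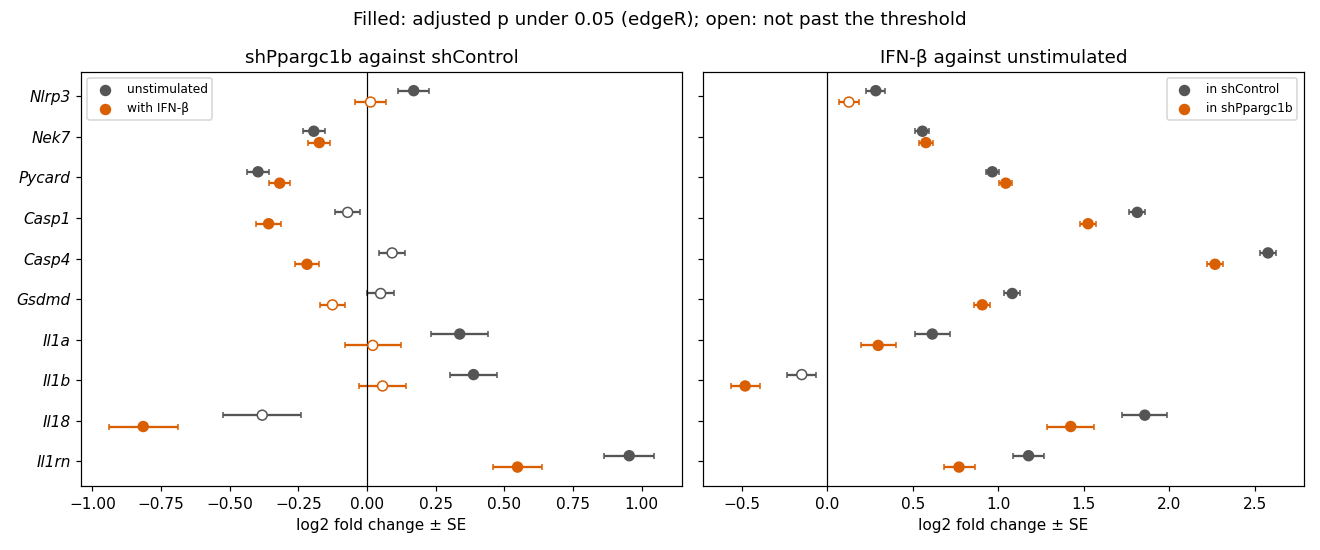
Log2 fold change with SE (x axis) of each gene (y axis) for the knockdown against shControl (left) and for IFN-β against unstimulated DCs (right), filled where the adjusted p was under 0.05. With IFN-β, *Casp4* lay farthest right at 2.58 and 2.27, and in the knockdown *Il1rn* lay farthest right at 0.95 and 0.55.

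The second question was what lowering *Ppargc1b* changes in unstimulated DCs. Each knockdown comparison shares libraries with each IFN-β comparison, so their values are only set side by side. In all, 4 members rose (*Il1rn*, *Il1b*, *Il1a*, *Nlrp3*), 2 fell (*Pycard*, *Nek7*) and 4 were not called. Of all genes tested 12.4% were called higher and 11.1% lower, 23.6% in all. Libraries of 9 members did not overlap between the groups, against 36.8% of all genes. The median log2 fold change was 0.07 over the members and -0.00 over all genes tested. The exact two-sided permutation test on 3 against 3 libraries cannot give a p below 0.1, the value it gave for groups that did not overlap.

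*Il1rn*, the antagonist, moved most. Its 3 sh*Ppargc1b* libraries at 1526 to 1748 CPM were all far above the 3 shControl libraries at 771 to 903 CPM, a 1.94-fold rise (log2 fold change 0.95 ± 0.09, adjusted p = 2.5e-06). Summed neutrophil markers were also higher there, at 101 to 173 CPM against 52.5 to 107 CPM with a slight overlap. Means of *Ly6g*, *Mpo*, *Elane* and *Retnlg* were lower there and those of the other listed markers higher, and only *S100a8* and *Cxcr2* were called. The part of the neutrophil markers was not tested. The agonist genes moved less: *Il1b* rose 1.31-fold (0.39 ± 0.08, adjusted p = 0.00328) and *Il1a* 1.26-fold (0.34 ± 0.10, adjusted p = 0.0270), with no overlap between the groups given above. The *Il1a* call was lost without shControl library 1 (adjusted p = 0.0803) or 3 (0.106) and without sh*Ppargc1b* library 1 (0.0597) or 2 (0.0967). *Il18* was at 3.16 to 4.57 CPM in shControl and 2.50 to 3.04 CPM in sh*Ppargc1b* DCs and was not called (-0.38 ± 0.14, adjusted p = 0.0657). It was called lower under DESeq2 (adjusted p = 0.0373), when all genes with a count were tested (0.0439), with the block for library codes (0.0241), and without shControl library 2 (0.0483) or 3 (0.0374).

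Of the sensor complex, *Nlrp3* rose 1.12-fold (0.17 ± 0.06, adjusted p = 0.0413), while *Nek7* fell to 0.874-fold (-0.19 ± 0.04, adjusted p = 0.00248) and *Pycard* to 0.759-fold (-0.40 ± 0.04, adjusted p = 3.2e-06). Each of the 3 had no overlap between shControl and sh*Ppargc1b*. The *Nlrp3* call was lost when any unstimulated library but sh*Ppargc1b* library 1 was left out (adjusted p from 0.0747 to 0.123). The downstream genes did not pass the test: *Casp1* had a log2 fold change of -0.07 ± 0.05 (adjusted p = 0.310), *Casp4* of 0.09 ± 0.05 (0.200) and *Gsdmd* of 0.05 ± 0.05 (0.528). *Casp1* and *Casp4* libraries nonetheless did not overlap between the groups.

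With IFN-β present, in a comparison of the other 6 libraries, the knockdown left 1 member higher (*Il1rn*) and 5 lower (*Nek7*, *Pycard*, *Casp1*, *Casp4*, *Il18*). Of all genes tested 11.5% were called higher and 12.7% lower, 24.2% in all. Libraries of 7 members did not overlap, against 38.7% of all genes. The median log2 fold change was -0.15 over the members and -0.01 over all genes tested. *Casp1* libraries at 151 to 156 CPM in the knockdown were all below those of shControl at 186 to 207 CPM (0.780-fold, -0.36 ± 0.04, adjusted p = 3.0e-05). *Casp4* was 0.859-fold (-0.22 ± 0.04, adjusted p = 0.00185), and *Gsdmd*, at 0.916-fold, was not called (-0.13 ± 0.05, adjusted p = 0.0643) although its libraries did not overlap. It was called lower without sh*Ppargc1b* IFN-β library 3 (adjusted p = 0.0432) and with the block for library codes (0.0136). *Pycard* was 0.802-fold (-0.32 ± 0.04, adjusted p = 2.5e-05) and *Nek7* 0.886-fold (-0.17 ± 0.04, adjusted p = 0.00531). For these, too, all knockdown libraries were below the shControl ones, and the summed macrophage markers given above were also lower in all 3 knockdown libraries. That sum was lower without IFN-β as well, at 2529 to 2607 CPM against 2784 to 2949 CPM. In that state *Pycard* and *Nek7* were called lower and *Casp1*, *Casp4* and *Gsdmd* were not called. The part of those markers was not tested.

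*Il18* fell most in the knockdown with IFN-β, to 0.568-fold (-0.82 ± 0.13, adjusted p = 2.1e-04), with 6.50 to 8.03 CPM against 12.7 to 13.7 CPM in shControl. *Il1rn* was again higher, 1.46-fold (0.55 ± 0.09, adjusted p = 3.8e-04), with no overlap. *Il1a*, *Il1b* and *Nlrp3*, which were called higher in unstimulated DCs, had log2 fold changes of 0.02 ± 0.10 (adjusted p = 0.917), 0.06 ± 0.09 (0.692) and 0.01 ± 0.06 (0.907). Their libraries overlapped between the groups.

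Whether the knockdown effect differed with and without IFN-β was tested as the interaction of hairpin and treatment. It was called for 1 member, *Casp4*, at -0.31 ± 0.07 on the log2 scale (adjusted p = 0.0408), where a negative value is a weaker rise with IFN-β in sh*Ppargc1b* DCs. Of all genes tested 0.73% were called, 0.0603% higher and 0.669% lower. Its value stayed between -0.35 and -0.26 under all 18 alternatives. The call was kept with RLE scaling, with DESeq2, when all genes with a count were tested and with the block for library codes (lowest adjusted p = 0.00348). It was lost with library totals alone (adjusted p = 0.0787), with limma-voom (0.0698), and when any library was left out except shControl IFN-β library 1 and sh*Ppargc1b* IFN-β library 2 (0.0555 to 0.162, the highest without unstimulated shControl library 3). *Casp1* had a like value, -0.29 ± 0.06 (adjusted p = 0.0534), and crossed the threshold under RLE scaling (0.0460), DESeq2 (0.00425), when all genes with a count were tested (0.00817), with the block for library codes (0.00915), and without shControl IFN-β library 1 (0.0250) or sh*Ppargc1b* IFN-β library 2 (0.0497). *Il1rn*, at -0.41 (adjusted p = 0.194), was called under DESeq2 (0.0417), with all genes (6.4e-09), with the block (0.00606) and without sh*Ppargc1b* IFN-β library 2 (0.0250). *Il18* had -0.43 (0.427), *Il1b* -0.33 (0.297), *Il1a* -0.32 (0.462, but 0.0435 without sh*Ppargc1b* IFN-β library 2), *Gsdmd* -0.18 (0.334) and *Nlrp3* -0.16 (0.537). When all genes with a count were tested, *Il1a* (adjusted p = 6.0e-04) and *Il1b* (0.00135) were called as well. *Pycard* and *Nek7* had 0.08 (0.697) and 0.02 (0.955). The median over the members was -0.30 and over all genes tested -0.00. For 7 of the 10 members the unadjusted p was under 0.05, as it was for 10.5% of all genes (6.53% on the lower side).

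Ratios within a library cancel its scaling. The per-length level of *Il1rn* was 2.94, 3.77 and 3.04 times that of *Il1b* in unstimulated shControl DCs and 4.63, 5.06 and 4.61 times in unstimulated sh*Ppargc1b* DCs. With IFN-β the ratio was 7.12, 8.74 and 8.44 in shControl and 11.1, 11.6 and 11.3 in sh*Ppargc1b* DCs. The 4 groups did not overlap and lay in that order, lowest to highest. The ratio of *Il1b* to *Il1a* was 0.617, 0.454 and 0.560 and 0.575, 0.538 and 0.567 in the unstimulated shControl and sh*Ppargc1b* groups. With IFN-β it was 0.351, 0.296 and 0.311 and 0.359, 0.307 and 0.322. Treated libraries were all lower, and the hairpin groups overlapped in both states. The ratio of *Casp1* to *Pycard* was 1.56 ± 0.0167 (SD, n = 3) in unstimulated shControl, 1.96 ± 0.0954 in unstimulated sh*Ppargc1b*, 2.81 ± 0.141 with IFN-β in shControl and 2.74 ± 0.0390 with IFN-β in sh*Ppargc1b* DCs. The hairpin groups were apart only without IFN-β. The size of the *Casp1* to *Pycard* ratio depends on the exon length used for each gene, while its order between groups does not.

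**Figure D3:**
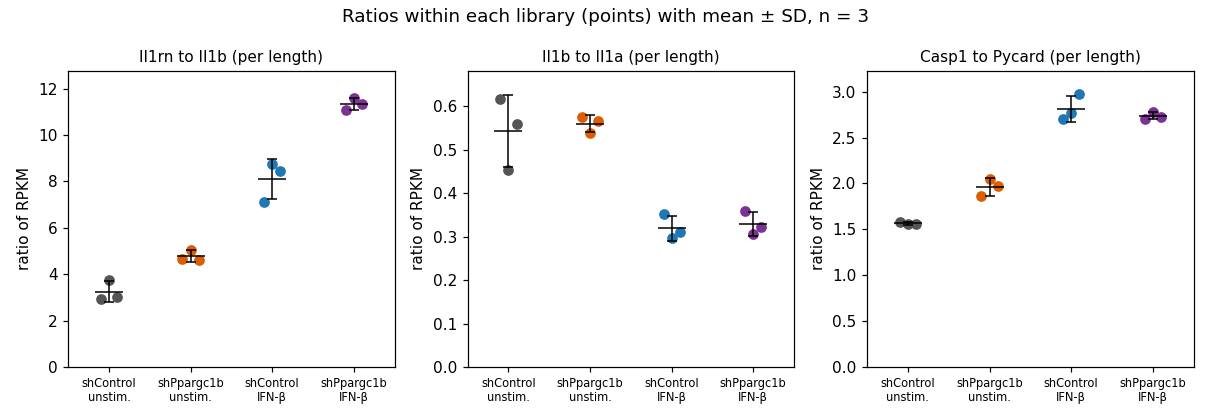
Ratio of per-length levels (RPKM, y axis from 0) of gene pairs in each library (points), by group (x axis), with mean and SD of 3 libraries (lines). The *Il1rn* to *Il1b* ratio lay between 2.94 and 3.77 in unstimulated shControl DCs and between 11.1 and 11.6 in sh*Ppargc1b* DCs with IFN-β.

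The members' share of all counts was 0.169% to 0.185% in unstimulated shControl, 0.254% to 0.278% in unstimulated sh*Ppargc1b*, 0.291% to 0.326% in IFN-β-treated shControl and 0.347% to 0.421% in IFN-β-treated sh*Ppargc1b* libraries. *Il1rn* had the most counts of the members in every library, so the share largely follows this gene. In library 1 of each group, in the same order, it had 49440 of 95043, 89817 of 135220, 83985 of 147035 and 125904 of 186831 member counts. A higher share is thus not a rise of each member, and with IFN-β 5 members were called lower in the knockdown.

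The surrounding pathway was read from 6 lists of 66 other genes, of which 57 were tested. The shares of all genes called, against which the counts below are to be read, were 12.4% higher and 11.1% lower in the knockdown without IFN-β and 11.5% and 12.7% with it. They were 23.7% and 24.6% with IFN-β in shControl and 21.4% and 21.2% in sh*Ppargc1b* DCs. Among sensors and adaptors other than NLRP3, 4 of 11 fell and 7 were not called in the knockdown without IFN-β, and 8 fell and 3 were not called with it. *Naip1*, a receptor partner for bacterial needle proteins, had -0.95 and -0.77 on the log2 scale (adjusted p = 9.6e-06 and 5.0e-05), and the sensor *Nlrp1b* -0.86 and -0.91 (2.6e-05 and 2.3e-05). With IFN-β 7 of the 11 rose in each kind of DC, while 2 fell in shControl and 3 in sh*Ppargc1b* DCs. Among those that fell, *Nlrp1b* had -0.41 and -0.46. *Aim2*, a sensor of cytosolic DNA, rose by 1.16 in shControl and 0.88 in sh*Ppargc1b* DCs. *Mefv*, encoding pyrin, rose by 1.01 and 0.58, and *Naip1* rose by 0.84 and 1.02.

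Of 5 other caspase and lytic death effector genes tested, 3 rose and 1 fell with IFN-β in each kind of DC. *Casp8*, an initiator caspase, rose by 1.02 in shControl and 0.83 in sh*Ppargc1b* DCs. *Gsdme*, another gasdermin, fell by 1.02 in shControl and fell by 0.81 in sh*Ppargc1b* DCs. In the knockdown 2 rose and 3 were not called without IFN-β, and 1 rose and 1 fell with it. *Gsdme*, at a few CPM, rose by 0.39 (adjusted p = 0.0214) and 0.59 (0.00270), and *Casp8* fell by 0.24 with IFN-β (2.9e-04) and had -0.05 without it (0.393). *Ninj1*, whose product ruptures the plasma membrane in lytic death, rose by 0.17 without IFN-β (0.0360) and had -0.01 with it (0.913). Without IFN-β, *Gsdme* lost its call when sh*Ppargc1b* library 2 (adjusted p = 0.0666) or 3 (0.0548) or shControl library 3 (0.0865) was left out. *Ninj1* lost it without shControl library 1 (0.152) or sh*Ppargc1b* library 1 (0.105), 2 (0.0545) or 3 (0.0623).

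Regulators of NLRP3 moved in both directions: of 15, 7 rose and 3 fell in the knockdown without IFN-β and 5 rose and 4 fell with it. *Clic4*, a chloride channel protein, rose by 0.62 and *Tnfaip3*, a ubiquitin-editing brake on NF-κB, by 0.57 without IFN-β, and by 0.18 and 0.20 with it. *Panx1*, a pannexin channel gene, rose by 0.52 without and 0.42 with IFN-β. *Nek6*, a relative of *Nek7*, rose by 0.34 with IFN-β and had 0.11 without it (adjusted p = 0.0650). With IFN-β, the *Tnfaip3* call was lost without shControl IFN-β library 1 (0.144) or 3 (0.122) or sh*Ppargc1b* IFN-β library 2 (0.140) or 3 (0.0906). IFN-β raised 9 of the 15 in shControl and 8 in sh*Ppargc1b* DCs. *Gbp5*, a guanylate-binding protein, rose by 4.20 and 3.54 and *Trim30a* by 2.27 and 1.96.

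Only 3 of 6 other IL-1 family cytokines were tested. *Il33*, an alarmin, rose in the knockdown by 1.21 (adjusted p = 3.6e-04) without IFN-β and by 0.70 (0.0130) with it. The second call was lost without sh*Ppargc1b* IFN-β library 1 (0.0735) or shControl IFN-β library 3 (0.0718). *Il36g* rose by 0.81 and 0.85 in the knockdown and with IFN-β fell by 0.42 in shControl and fell by 0.38 in sh*Ppargc1b* DCs. *Il33* rose with IFN-β by 1.16 in shControl and 0.65 in sh*Ppargc1b* DCs, the latter call lost without sh*Ppargc1b* IFN-β library 1 (adjusted p = 0.0581) and with library totals alone (0.0601).

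On the receiving side, 4 of 9 receptor and binding protein genes rose and 1 fell in the knockdown without IFN-β, and 3 rose and 1 fell with it. *Il1r1*, the signalling IL-1 receptor, rose by 0.57 (adjusted p = 1.2e-04) and 0.75 (2.4e-05). The decoy receptor *Il1r2* rose by 0.40 without IFN-β (0.00630) and by 0.38 with it (0.0102), the latter call lost without shControl IFN-β library 2 (0.0529) or sh*Ppargc1b* IFN-β library 3 (0.0639). *Il1rap*, the shared coreceptor, rose by 0.46 without IFN-β (0.00877), lost without sh*Ppargc1b* library 2 (0.0551). With IFN-β it rose by 0.33 (0.0453), lost without shControl IFN-β library 1 (0.108) or 3 (0.211) or sh*Ppargc1b* IFN-β library 2 (0.241). IFN-β lowered 5 of the 9 and raised 2 in each kind of DC. *Il18bp*, which encodes a soluble trap for IL-18, rose by 2.48 and 1.84, and *Il1rl1*, the IL-33 receptor, fell by 1.47 in shControl and fell by 1.38 in sh*Ppargc1b* DCs.

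Of 14 signalling genes downstream of the IL-1 receptor, 2 fell and 12 were not called in the knockdown without IFN-β, and 6 fell and 8 were not called with it. *Peli2* fell by 0.33 without IFN-β and had -0.09 with it (adjusted p = 0.146). The kinase gene *Irak4* fell by 0.24 without IFN-β and fell by 0.21 with it. *Peli1*, a ubiquitin ligase of the pathway, fell by 0.39 with IFN-β and had 0.03 without it (0.749). *Peli3* had -0.24 without IFN-β (0.128) and fell by 0.32 with it (0.0450), but lost its call when any library but shControl IFN-β library 2 was left out (0.0546 to 0.179) and under 4 other settings. IFN-β raised 7 and lowered 3 in shControl and raised 6 and lowered 3 in sh*Ppargc1b* DCs, among them the adaptor *Myd88*, up by 0.95 and 0.81, and *Peli1*, up by 1.65 and 1.23. Over all 6 lists, 15 rose and 10 fell in the knockdown without IFN-β, 11 and 20 with it. The respective counts with IFN-β were 30 and 14 in shControl and 27 and 16 in sh*Ppargc1b* DCs. The medians of the log2 fold change over the 57 genes were 0.03 and -0.12 in the knockdown and 0.22 and 0.10 with IFN-β. The interaction was called for 5 of the 57, with *Gbp5*, *Il18bp*, *Clic4*, *Peli1* and *Aim2* between -0.66 and -0.28. Of all genes tested 0.73% were called for it, 0.669% on the lower side.

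**Figure D4:**
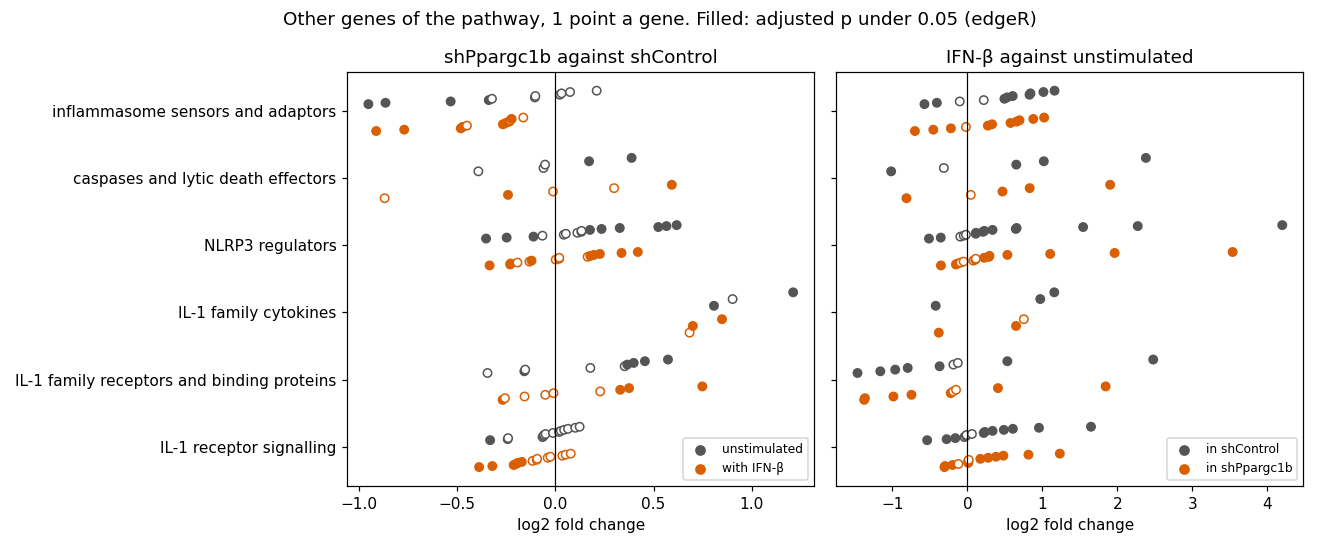
Log2 fold change (x axis) of the 57 other pathway genes tested, 1 point a gene, by list (y axis), for the knockdown (left) and for IFN-β (right), filled where the adjusted p was under 0.05. Sensors lay at or below 0 in the knockdown when called, and *Gbp5* lay farthest right with IFN-β at 4.20 and 3.54.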

How the data were processed

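RNA-seq libraries were prepared from total RNA after ribosomal RNA depletion (KAPA RiboErase). Per the labels, reads were trimmed with Trim Galore 0.6.0 and aligned with STAR 2.7.8a to GRCm38, and the authors deposited raw read counts per gene as 1 merged table, with no normalization. The 12 libraries held 49919648 to 77726101 counts.

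Genes with a count of at least 10 in enough libraries by edgeR's filterByExpr (total of at least 15) were tested, 18228 of 55471. Counts were scaled by TMM and fitted in edgeR 4.0.16 (R 4.3.3, limma 3.58.1) with 1 mean per group over all 12 libraries, and 5 contrasts were tested by the quasi-likelihood F-test with Benjamini-Hochberg adjustment at 0.05. The code was tested on simulated data. RPKM used the union of GENCODE M21 exons. Alternatives are listed in the closing section and included DESeq2 1.42.0.

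The labels gave library codes but no replicate numbers, so libraries were numbered in deposition order. The members and the pathway lists were chosen with earlier results of these data known. All members are named, and from each list the 2 called genes with the largest change in each of the first 4 contrasts at a mean log2 CPM of at least 1, plus those called for the interaction; for each member, the 2 genes with the highest Pearson correlation. Some genes of the lists are not reported here.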

Additional observations from a re-analysis of the deposited data

Results flagged for a closer look

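The knockdown effect differed between unstimulated and IFN-β-treated DCs, by the test of the interaction of hairpin and treatment (edgeR's quasi-likelihood test, Benjamini-Hochberg adjusted), for 1 of the 10 members and 5 of the 57 other pathway genes tested, against 0.73% of all genes tested. Values are log2 differences, the knockdown effect with IFN-β minus that without it. All 6 were negative, the side of most calls: of all genes tested 0.669% were called lower and 0.0603% higher. *Casp4* had -0.31 (adjusted p = 0.0408), and its call was lost under the settings named above. *Gbp5* had -0.66 (0.00368): its knockdown effect was 0.33 without and -0.33 with IFN-β, called in each case. *Il18bp* had -0.63 (0.00970), with a knockdown effect of 0.37 without IFN-β (0.00180) and -0.27 with it (0.00940). The latter call was lost without shControl IFN-β library 3 (0.0542). *Clic4* had -0.44 (0.00395). *Peli1* had -0.42 (0.0119), lost without unstimulated shControl library 3 (0.0638). *Aim2* had -0.28 (0.0381), lost with library totals alone (0.0746) and when any library was left out (0.0721 to 0.165, the highest without unstimulated shControl library 3) other than unstimulated shControl library 2, shControl IFN-β library 1 and sh*Ppargc1b* IFN-β libraries 2 and 3.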

How the results depend on the processing

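Of 940 results on members recomputed under 19 alternatives, 878 kept direction and side of the threshold, 26 lost a call, 24 gained one and 12 changed sign. The counts of members called in the 4 comparisons of groups stayed within 4 to 7, 6 to 7, 9 to 10 and 8 to 10, in the order knockdown without IFN-β, knockdown with it, IFN-β in shControl, IFN-β in the knockdown. The count for the interaction, 1 as reported, was 2 with RLE size factors, 0 with library totals alone, 5 with all genes that had a count, 3 with DESeq2, 0 with limma-voom, 3 with a block for runs of consecutive library codes, and 0 to 4 with 1 library left out. *Nlrp3* with IFN-β in sh*Ppargc1b* DCs turned to -0.0781 with library totals alone, and the causes were not tested. With 1 library left out, uncalled values crossed 0: the knockdown with IFN-β for *Nlrp3* (-0.0646 to 0.0673), *Il1a* (-0.142 to 0.128) and *Il1b* (-0.0496 to 0.107), and the interaction for *Nek7* (-0.0178 to 0.0726).

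The labels give library codes and no replicate numbers by which to pair libraries. The block for runs of codes, which the labels do not call a batch, gave the members further calls, named beside each result. With 3 libraries a group, the interaction is the least precise comparison, and *Il18* rests on the fewest counts. For the interaction 133 of all genes were called, 449 under DESeq2, 525 with all genes that had a count, 425 with the code block and 84 with library totals alone.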

Other observations

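For each member, the genes whose log2 CPM followed it most closely over the 12 libraries are given as a description. The points share the 4 groups, so genes with a like response to IFN-β and to the hairpin correlate. *Casp4* was nearest to *Marchf5* (Pearson r above 0.999) and *Herc6* (0.999), *Casp1* to *Dpy19l1* and *P2ry14* (both 0.998), *Gsdmd* to *Axl* and *Crybg1* (both 0.998), and *Pycard* to *Gbp8* and *Mpp1* (both 0.997). *Nek7* was nearest to *Zfp319* and *Rmdn3* (both 0.994), *Il1rn* to *Mmp14* (0.995) and *Rin2* (0.994), and *Il18* to *Kif5c* (0.993) and *Tra2a* (0.990). *Nlrp3* and *Il1a* were each nearest to the other (0.972), followed by *Zdhhc21* (0.959) for *Nlrp3* and *Rab3ip* (0.970) for *Il1a*. *Il1b* had the lowest values, with *Six4* (0.943) and *Gm49336* (0.936).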
